A study of Mus musculus with 12 samples.

Results

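The genes described here are 9 mouse genes chosen by name as readers and cofactors of silent chromatin: the 3 heterochromatin protein 1 (HP1) genes Cbx1, Cbx3 and Cbx5, and Trim28, Atf7ip, Atrx, Daxx, Smchd1 and Morc3. All 9 were found among the 23354 genes shared by the 12 libraries, and all 9 passed the filter on low values that left 13109 genes for testing. The rule names them and uses no measured value, though they were picked with earlier results of these data known.

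mRNA was sequenced from stable lines of J1 mouse embryonic stem (ES) cells, which were cultured with serum and leukemia inhibitory factor on a layer of mouse embryonic fibroblasts, with 2 libraries in each of 6 groups. An arm of 6 libraries carried a histone H3.1 transgene: the control H3.1WT, which is wild type, or the mutants H3.1K9M and H3.1K36M, with methionine in place of lysine 9 or lysine 36. The other arm carried a hairpin against Suv39h1 (shSuv39h1) or Suv39h2 (shSuv39h2), or the hairpin shNC, read here as the control from its name. All 12 libraries come from the same parental cells. Whether a line is 1 clone or a pool, and which promoter drives a transgene, the sources used here do not say. The labels do not tie the libraries of a group to separate cultures, and the p-values then reflect library-to-library spread that could be technical.

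Constitutive heterochromatin is marked by trimethylation of histone H3 lysine 9 (H3K9me3), which the Suv39h enzymes write at pericentromeric repeats and Setdb1 writes at many retroelements. HP1 proteins bind this mark through a chromodomain and recruit further factors. Trim28 (KAP1) is brought to DNA by KRAB zinc finger proteins and recruits Setdb1 and HP1. Atf7ip is the partner that stabilises Setdb1. Atrx and Daxx form a chaperone complex that deposits the variant histone H3.3 at heterochromatin and telomeres. Smchd1 and Morc3 are ATPases linked to silencing of the inactive X chromosome and of retroelements, respectively. Histones with methionine at such a lysine are known to act on other histones, whose methylation at that residue falls, and the hairpins target the writers, so the comparisons ask whether the transcripts of the readers and cofactors differed when the mark or its writers were targeted.

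The promoter stretches of 5 genes are shown first, because the results turn on them: Daxx, Atf7ip and Morc3 each passed a test, and in 1 line the group mean of Cbx1 was the lowest and that of Cbx5 the highest of the 6. Sequences are from RefSeq on GRCm38.p6 and lie within the 150 bases before the most upstream listed start, cut to the stretch that holds no annotated exon, and they read 5′ to 3′ on the strand of the gene. The listed starts are RefSeq's; GENCODE M21 begins Atf7ip 12.5 kb upstream of the stretch shown for it. Capitals mark the motifs searched: GGGCGG (GC box), CCAAT (NF-Y box), AANATGGC (YY1 core), TGCGCANGC (NRF1 site) and TTTNGCGC (E2F site), on either strand, and where 2 marked motifs overlap the capitals run on.
Daxx, chr17:33909318-33909413, plus strand: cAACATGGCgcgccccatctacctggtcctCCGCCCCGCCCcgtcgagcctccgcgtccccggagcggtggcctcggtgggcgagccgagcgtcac
Atf7ip, chr6:136518701-136518801, plus strand: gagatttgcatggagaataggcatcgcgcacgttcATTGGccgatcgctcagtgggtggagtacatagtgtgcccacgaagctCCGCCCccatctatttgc
Morc3, chr16:93831971-93832120, plus strand: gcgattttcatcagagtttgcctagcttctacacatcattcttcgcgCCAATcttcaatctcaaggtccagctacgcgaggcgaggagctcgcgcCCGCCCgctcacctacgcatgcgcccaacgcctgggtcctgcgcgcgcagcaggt
Cbx1, chr11:96788985-96789126, plus strand: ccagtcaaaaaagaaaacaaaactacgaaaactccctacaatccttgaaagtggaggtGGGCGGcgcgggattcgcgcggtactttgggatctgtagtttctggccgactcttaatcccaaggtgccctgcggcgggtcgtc
Cbx5, chr15:103239853-103240002, minus strand: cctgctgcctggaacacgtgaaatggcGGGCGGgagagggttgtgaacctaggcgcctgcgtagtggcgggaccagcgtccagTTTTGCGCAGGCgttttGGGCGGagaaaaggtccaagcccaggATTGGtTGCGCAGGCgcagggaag
In the full windows of 150 bases, GGGCGG was present in 8 of the 9 genes, against 29.0% of 27018 mouse promoters of the same length. CCAAT was present in 4 of 9, against 25.3% of promoters. TGCGCANGC and TTTNGCGC were each found in 1 gene, Cbx5, against 2.95% and 0.722% of promoters, and in Cbx5 a copy of TGCGCANGC overlaps the TTTNGCGC match. AANATGGC was found in Daxx alone, against 2.22% of promoters, and the ETS core CCGGAA was also found in Daxx, in its exon and so outside the printed stretch, against 9.5%. TATAAA was found in none of the 9 windows, against 8.08%. The 9 windows held a median of 13 CpG dinucleotides and 63.3% G and C, against 4 and 54.0% over all promoters. The promoters set beside the 9 were not matched for expression or CpG content. These matches describe letters in a window and not bound sites.

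Level is given as FPKM, fragments scaled to transcript length and library depth, as deposited. By depth, estimated from the steps between low values, 1 FPKM of a transcript of 2 kb stood for 41.8 to 55.1 fragments, so that a gene at 10 FPKM rested on 418 to 551 fragments and a counting error of 4.26% to 4.89%. The 10 ES cell markers, among them Pou5f1, all reached 1 FPKM in all 12 libraries. Of 18 fibroblast markers, 16 or 17 reached 1 FPKM in each library, and their summed level ran from 654 to 1040 FPKM in H3.1WT, 999 to 1850 in H3.1K9M, 1340 to 1390 in H3.1K36M, 752 to 993 in shNC, 569 to 801 in shSuv39h1 and 814 to 1010 in shSuv39h2. In these bulk samples, fewer cells of a type and less RNA per cell cannot be told apart. The spread between the 2 libraries of a group, as the SD of their log2 differences over genes, was widest in H3.1K9M (0.41) and shNC (0.345) and lay between 0.223 and 0.26 in the others. The hairpins were checked on their targets: Suv39h2 was 1.68 ± 0.104 FPKM in shSuv39h2 and 4.79 ± 0.0106 in shNC (SD, n = 2 each, limma adjusted p = 0.000304), while Suv39h1 was 5.01 ± 0.136 in shSuv39h1 and 8.05 ± 0.743 in shNC, a difference that missed the threshold of 0.05 (limma adjusted p = 0.0877).

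All 9 transcripts were abundant in ES cells. Trim28 was the highest, with a mean over the 12 libraries of 511 FPKM and a rank at the 99th percentile of tested genes. Cbx1 followed at 110 FPKM (percentile 95.1) and Cbx3 at 79.4 (percentile 93.1). Cbx5 averaged 34.3 FPKM, Morc3 29.3, Daxx 23.2, Atf7ip 18.7 and Atrx 18.1. Smchd1 was the lowest at 10.8 FPKM, still above the middle of tested genes (percentile 55.4). FPKM is scaled to transcript length, so these levels can be set beside each other, within the limits of how reads were shared among gene copies. The HP1 genes have processed copies elsewhere in the genome, and the sources used here do not say how reads that fit several places were counted.

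The levels of the 9 genes varied little among the 6 groups. The ratio of the highest to the lowest group mean ran from 1.16 for Smchd1 to 1.45 for Atf7ip. The SD of log2(FPKM + 1) over the 12 libraries had a median of 0.136 over the 9 genes and 0.173 over all tested genes. By this SD, Cbx1 and Atf7ip stood above the middle of tested genes (percentiles 56.9 and 52.9) and the others below. The tested genes were not matched to the 9 for level. When the 6 groups were ordered by level for each gene, 34 of the 45 pairs of neighbours overlapped in their libraries and 11 did not. This count was made for the 9 genes only, so it does not show how they stand beside other genes. Cbx3, Cbx5 and Daxx were each highest in shSuv39h2 and lowest in shNC. Cbx1, Atf7ip, Atrx and Smchd1 were each lowest in shSuv39h2. Trim28 and Morc3 were each lowest in H3.1K9M and highest in H3.1K36M.

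**Figure D1:**
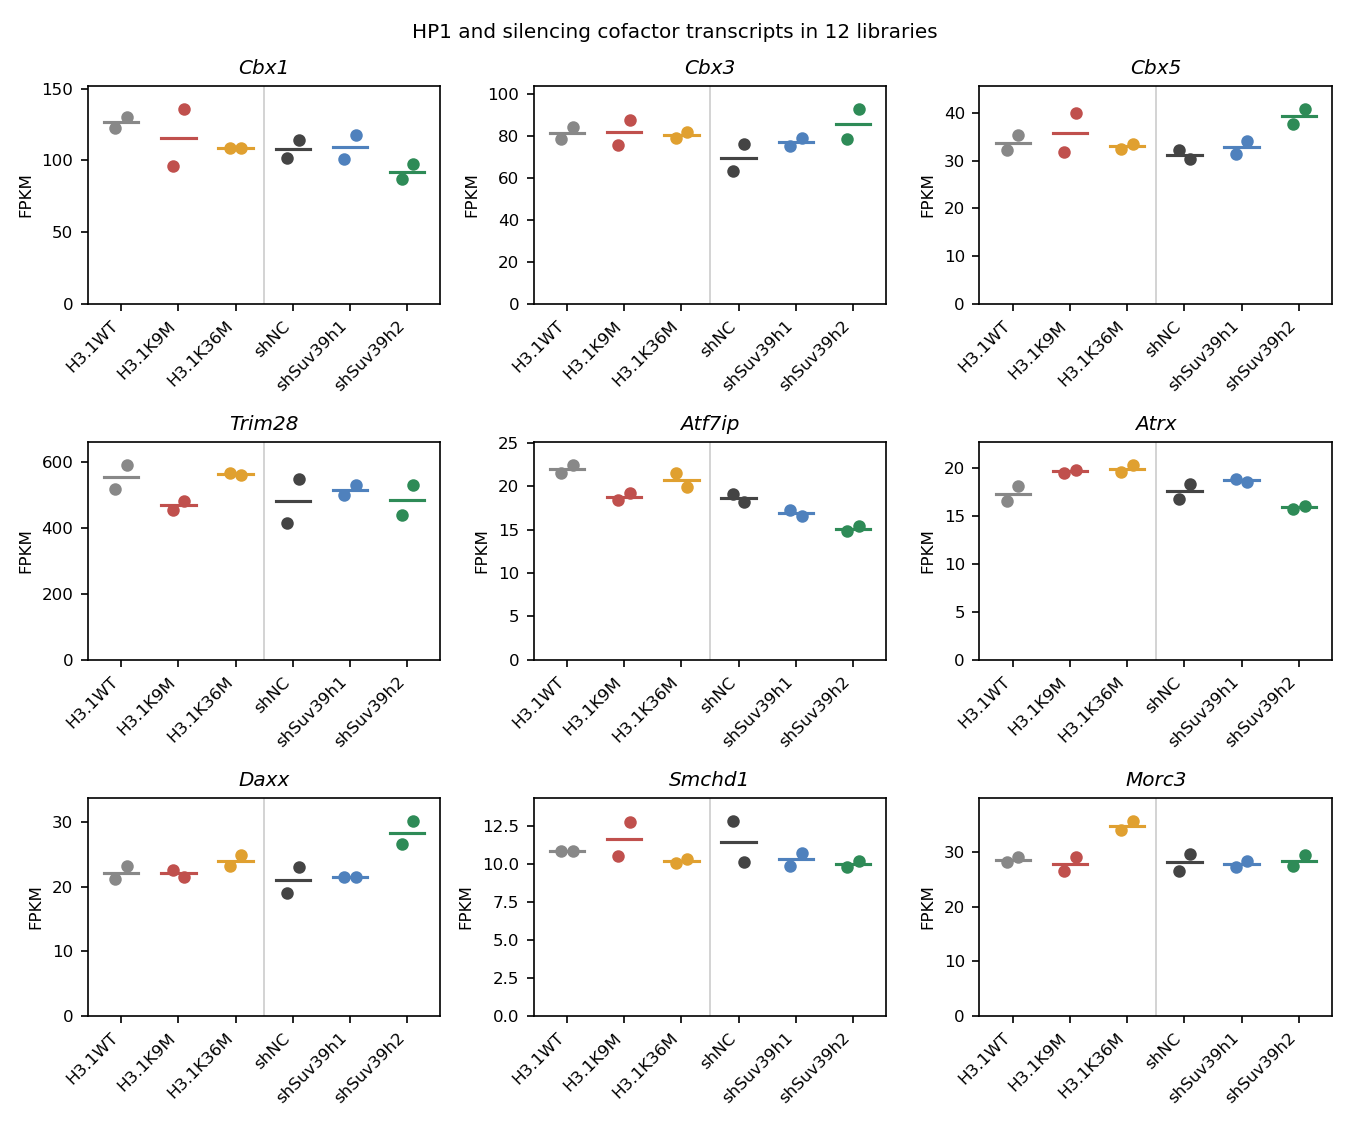
FPKM (vertical axes, from 0) of the 9 genes in the 12 libraries, by group (horizontal axes), with 1 point per library and a bar at the group mean; a grey line parts the histone arm from the hairpin arm. Daxx stands at 26.57 and 30.16 FPKM in shSuv39h2, above the other 10 libraries, and Morc3 at 33.99 and 35.62 in H3.1K36M.

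Against shNC, Suv39h2 knockdown gave 2 calls. Daxx rose and Atf7ip fell, so 2 of the 9 genes passed the test (limma on log2(FPKM + 1), Benjamini-Hochberg adjusted p over all 13109 genes, threshold 0.05), while 10.0% of all tested genes passed, 5.35% higher and 4.69% lower. That is 701 genes higher and 615 lower, a split that became 537 and 742 with median-of-ratios scaling, under which both genes still passed. At an unadjusted p under 0.05 there were 4 of the 9, against 25.8% of tested genes. The libraries of the groups did not overlap for 6 of the 9, with 3 higher and 3 lower, against 50.8% of tested genes. The 9 genes ranged from 81.1% to 135% of their shNC level. Their median absolute log2 fold change was 0.221, beside 0.164 over all tested genes. Cell markers also moved in this comparison. Of the 10 ES cell markers 3 rose and 0 fell, Klf4, Pou5f1 and Utf1, and their summed level was 5280 to 5510 FPKM in shSuv39h2 and 4600 to 4950 in shNC. Of 17 tested fibroblast markers 0 rose and 1 fell, Thy1, and of 2 tested endoderm markers 1 rose, Gata4 (2.53 against 1.26 FPKM, limma adjusted p = 0.00996). Their part in the Daxx and Atf7ip values was not tested, apart from the mean of the fibroblast markers as a covariate. With that covariate both genes still passed (limma adjusted p = 0.0159 for Daxx and 0.0299 for Atf7ip).

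Daxx, the H3.3 chaperone, read 26.57 and 30.16 FPKM in the shSuv39h2 libraries and 19.1 and 23 in the shNC libraries. It read 21.49 and 21.59 in shSuv39h1, 21.15 and 23.2 in H3.1WT, 21.58 and 22.6 in H3.1K9M, and 23.26 and 24.91 in H3.1K36M. Both shSuv39h2 libraries were thus above the 10 others. The group means were 28.4 ± 2.54 and 21.1 ± 2.75 FPKM (SD, n = 2 each), a log2 fold change of 0.42 (SE 0.104, 95% interval 0.18 to 0.65, limma adjusted p = 0.0338). The call was lost when shNC replicate 1 (log2 fold change 0.29, limma adjusted p = 0.167) or shSuv39h2 replicate 1 (0.51, limma adjusted p = 0.0694) or 2 (0.33, limma adjusted p = 0.211) was left out, and it held without shNC replicate 2 (0.54, limma adjusted p = 0.0172).

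Atrx, its partner in the chaperone complex, gave no call. It read 15.71 and 16.01 FPKM in shSuv39h2 and 16.76 and 18.3 in shNC, below but not past the threshold (log2 fold change −0.14, SE 0.0786, limma adjusted p = 0.319). Its other libraries read 18.8 and 18.52 in shSuv39h1, 16.5 and 18.06 in H3.1WT, 19.46 and 19.75 in H3.1K9M, and 19.51 and 20.23 in H3.1K36M. The ratio of Atrx to Daxx FPKM was 0.531 and 0.591 in shSuv39h2 and 0.778 to 0.915 in the 10 other libraries, with no overlap. This ratio is a description of the libraries and was not tested.

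The gene BC051226 lies on the opposite strand with an exon inside the Daxx promoter window and was chosen after its values were seen. It shares no exon bases with Daxx. It read 4.707 and 5.57 FPKM in shSuv39h2 and 2.122 and 2.566 in shNC, with a log2 fold change of 0.88 (SE 0.208, limma adjusted p = 0.0279). In shSuv39h1 BC051226 read 3.382 and 4.174 FPKM, above both shNC libraries but not past the threshold (log2 fold change 0.51, limma adjusted p = 0.424), whereas Daxx in shSuv39h1 lay within the shNC range. The sources used here do not say whether counting used strand, so reads from these neighbours that run past the annotated exons cannot be told apart.

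Atf7ip, the Setdb1 partner, read 14.81 and 15.43 FPKM in shSuv39h2 and 19.07 and 18.2 in shNC. It read 17.23 and 16.53 in shSuv39h1, 21.5 and 22.41 in H3.1WT, 18.4 and 19.22 in H3.1K9M, and 21.52 and 19.87 in H3.1K36M. The shSuv39h2 libraries were the lowest of the 12, and in the hairpin arm the 3 groups did not overlap. The group means were 15.1 ± 0.435 and 18.6 ± 0.615 FPKM (SD, n = 2 each), a log2 fold change of −0.28 (SE 0.077, 95% interval −0.46 to −0.11, limma adjusted p = 0.0466). This call was lost without any 1 of the 4 libraries compared: the limma adjusted p was 0.163 without shNC replicate 1, 0.0564 without shNC replicate 2, 0.193 without shSuv39h2 replicate 1 and 0.137 without shSuv39h2 replicate 2, with log2 fold changes of −0.32 to −0.25. Setdb1 itself was 21.9 FPKM in shSuv39h2 and 21.6 in shNC (limma adjusted p = 0.889).

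The log2 fold changes of the 3 HP1 genes did not share a sign in this line, and none of these genes passed the test. Cbx1 (HP1β) read 87.16 and 97.14 FPKM in shSuv39h2 and 101.3 and 113.8 in shNC, a log2 fold change of −0.22 (SE 0.148, limma adjusted p = 0.395). Cbx3 (HP1γ) read 78.57 and 92.79 in shSuv39h2 and 63.56 and 76.03 in shNC, a log2 fold change of 0.29 (SE 0.114, limma adjusted p = 0.14). Cbx5 (HP1α) read 37.78 and 40.78 in shSuv39h2 and 32.16 and 30.42 in shNC, a log2 fold change of 0.32 (SE 0.109, limma adjusted p = 0.1). The groups did not overlap for any of the 3, with Cbx1 lower and Cbx3 and Cbx5 higher, against 50.8% of tested genes without overlap. The 95% interval for Cbx1, −0.55 to 0.11, held both signs. The intervals for Cbx3 (0.04 to 0.55) and Cbx5 (0.07 to 0.56) were positive throughout. Opposed directions of the HP1 genes were therefore not established.

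The make-up of the HP1 transcript pool in the shSuv39h2 libraries lay outside the range of the other libraries, and its summed level did not. The summed FPKM of the 3 genes was 204 and 231 in shSuv39h2, inside the range of 197 to 263 in the 10 other libraries. Cbx1 made up 42.1% and 42.8% of that sum in shSuv39h2 and 47.1% to 52.5% elsewhere. Cbx3 made up 38.6% and 40.2%, against 32.3% to 37.3%, and Cbx5 made up 17.7% and 18.6%, against 13.8% to 16.3%. For each of the 3 shares the shSuv39h2 libraries lay outside the range of the 10 others. The shares are parts of the same sum in each library, so they are not independent of each other. The ratio of Cbx1 to Cbx5 was 2.34 ± 0.0533 in shSuv39h2 (SD, n = 2) and 3.45 ± 0.418 in shNC (SD, n = 2), and the ratio of Cbx1 to Cbx3 was 1.08 ± 0.0441 and 1.55 ± 0.0686. In the remaining groups the mean ratio of Cbx1 to Cbx5 ran from 3.2 in H3.1K9M to 3.75 in H3.1WT. These shares and ratios were chosen after the values were seen and carry no test.

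**Figure D2:**
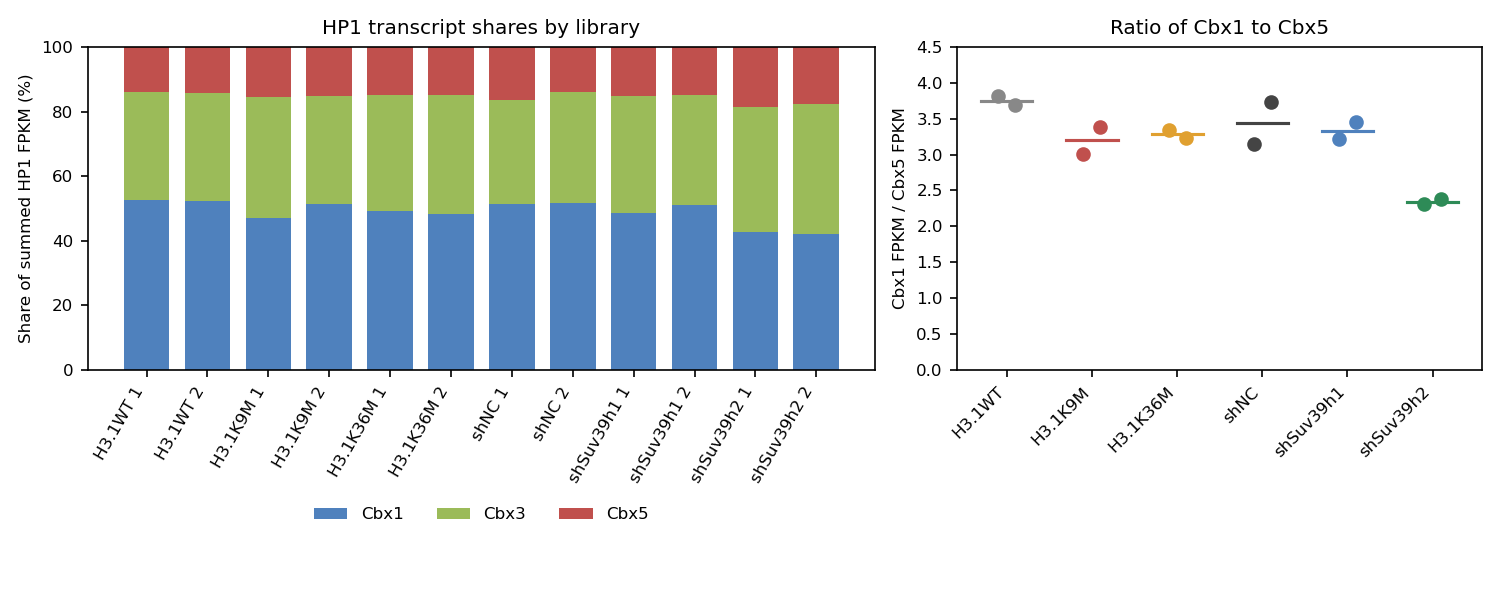
Left, share (%) of the summed FPKM of Cbx1, Cbx3 and Cbx5 in each library, as stacked bars from 0 to 100; right, the ratio of Cbx1 to Cbx5 FPKM with 1 point per library and a bar at the group mean. The 2 shSuv39h2 libraries have the smallest Cbx1 shares (42.1% and 42.8%) and the smallest ratios (2.31 and 2.38).

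The other 3 genes gave no call in shSuv39h2. Trim28, the KRAB corepressor, read 440.2 and 530.7 FPKM in shSuv39h2 and 413.5 and 549 in shNC (log2 fold change 0.02, 95% interval −0.29 to 0.33). Morc3 read 27.35 and 29.5 in shSuv39h2 and 26.61 and 29.69 in shNC (log2 fold change 0.01, 95% interval −0.17 to 0.20). Smchd1 read 9.781 and 10.23 in shSuv39h2 and 12.82 and 10.15 in shNC (log2 fold change −0.17, 95% interval −0.44 to 0.09). The libraries of the 2 groups overlapped for all 3 genes.

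Among the 65 tested genes of 6 lists of partners of these proteins, 7 rose and 4 fell in shSuv39h2, the hairpin target among the latter. That is 16.9%, beside 10.0% of all tested genes, and 36.9% had an unadjusted p under 0.05, beside 25.8%. Of 7 genes for H3K9 methyltransferases and their partner Wiz, 1 rose and 1 fell: Ehmt2 (G9a), which methylates H3K9 in euchromatin, was 70.6 FPKM against 56.6 (limma adjusted p = 0.0381), and Suv39h2 is the hairpin target. Of 16 HP1 partners, 2 rose and 0 fell. These were Incenp, the scaffold of the chromosomal passenger complex, at 70.5 against 51.2 FPKM (limma adjusted p = 0.0115), and Suv420h2, an H4K20 methyltransferase recruited by HP1, at 39.5 against 30.2 (limma adjusted p = 0.0438). The median log2 fold change of the HP1 partners was 0.09, beside 0.04 over all tested genes.

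Of 7 tested genes of the HUSH complex and the MORC family, 1 rose and 2 fell. D14Abb1e, the symbol in the files for the HUSH subunit Tasor, rose from 5.69 to 9.3 FPKM (limma adjusted p = 0.0381). Morc1, a germline silencer of transposons, fell from 26.1 to 16.7 (limma adjusted p = 0.0163), and Atf7ip2, the paralogue of Atf7ip, fell from 4.1 to 2.75 (limma adjusted p = 0.0196). Both Atf7ip genes were therefore lower in shSuv39h2. Of the 10 genes of H3.3 and its chaperones 1 rose and 0 fell: Ubn2, of the HIRA complex, was 5.38 FPKM against 4.11 (limma adjusted p = 0.046).

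Of 16 SUMO and PML body genes, 1 rose and 0 fell. This was Pml, the scaffold of the nuclear bodies in which Daxx resides, at 52.7 FPKM against 37.2 (log2 fold change 0.49, limma adjusted p = 0.00368). The median log2 fold change of the 16 was 0.20, below the 0.24 of the DNA methylation maintenance and KRAB zinc finger list. Of 9 genes of DNA methylation maintenance and KRAB zinc fingers, 1 rose and 1 fell: Zfp57, an imprint-binding partner of Trim28, was 178 FPKM against 141 (limma adjusted p = 0.0282), and Zfp809, which targets proviruses, was 8.76 against 12.6 (limma adjusted p = 0.0444).

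**Figure D3:**
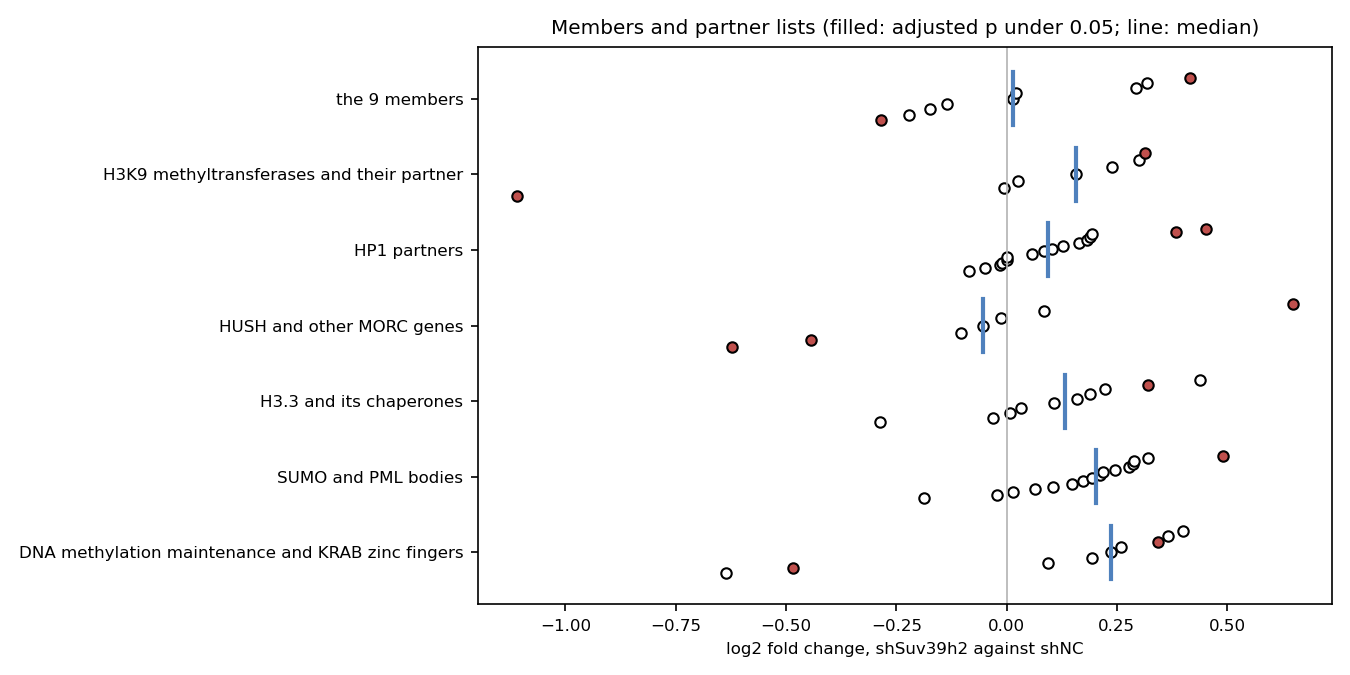
log2 fold change of shSuv39h2 against shNC (horizontal axis) for the 9 genes and for 6 partner lists (rows), with 1 point per gene, filled where the adjusted p was under 0.05, and a blue line at the median of each row. Daxx (0.42) and Atf7ip (−0.28) are the filled points of the top row. The medians of the partner rows run from −0.05 (HUSH and other MORC genes) to 0.24 (DNA methylation maintenance and KRAB zinc fingers).

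Suv39h1 knockdown gave no call among the 9 genes. The limma test against shNC passed 0 of 9 genes and 0.145% of all tested genes, and at an unadjusted p under 0.05 it passed 0 of 9 and 10.6% of all. The libraries did not overlap for 2 of the 9, Atf7ip lower and Atrx higher, against 39.4% of tested genes. The 9 genes ranged from 89.7% to 111% of their shNC level. Cbx1 in shSuv39h1 read 101.2 and 117.7 FPKM, Cbx3 75.15 and 79.25, and Cbx5 31.44 and 34.14. Each HP1 gene overlapped shNC, and the 95% intervals of their log2 fold changes ran from −0.31 to 0.36 for Cbx1, from −0.11 to 0.40 for Cbx3 and from −0.18 to 0.31 for Cbx5. Of the 6 partner lists, none had a call in this comparison.

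The hairpin lines were also compared with each other. The limma test of shSuv39h2 against shSuv39h1 passed 0 of 9 genes and 6.56% of all tested genes. At an unadjusted p under 0.05 it passed 3 of 9, Daxx, Atrx and Cbx5, and 21.7% of all. The libraries did not overlap for 5 of 9, against 58.7% of all. Daxx was nearest the threshold, with a log2 fold change of 0.38 and a limma adjusted p of 0.0609. The difference between the Daxx responses to the hairpins was therefore not established at this threshold. The knockdowns share the shNC libraries, so their responses are not independent of each other.

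H3.1K9M, the histone aimed at the mark that HP1 reads, also gave no call. The limma test against H3.1WT passed 0 of 9 genes and 0.313% of tested genes. At an unadjusted p under 0.05 it passed 1 of 9, Atf7ip, and 11.2% of tested genes. The libraries did not overlap for 3 of 9, against 35.2% of tested genes. The 9 genes ranged from 84.6% to 113% of H3.1WT, with 95% intervals of the log2 fold changes lying between −0.55 and 0.35.

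The 3 genes whose libraries did not overlap in H3.1K9M were Trim28, Atf7ip and Atrx. Trim28 read 455.4 and 481.7 FPKM in H3.1K9M and 518.3 and 589.9 in H3.1WT (log2 fold change −0.24, limma adjusted p = 0.532). Atf7ip was 18.8 ± 0.575 against 22 ± 0.644 FPKM (SD, n = 2 each, log2 fold change −0.21, limma adjusted p = 0.355). Atrx was higher (log2 fold change 0.17, limma adjusted p = 0.449). The HP1 genes overlapped H3.1WT, and their H3.1K9M libraries were far apart: Cbx1 read 95.69 and 135.5 FPKM, Cbx3 75.83 and 87.72, and Cbx5 31.77 and 40.02. In each case replicate 1, the library with the highest summed fibroblast markers (1850 FPKM), was the lower. This order was not shared by all groups. In H3.1WT the library with more summed markers (1040 against 654 FPKM) was the higher for every HP1 gene. In shSuv39h1 and shSuv39h2 it was the lower for every HP1 gene, and in shNC and H3.1K36M the HP1 genes were split. The part of the fibroblast markers in these values was tested only as a covariate, given in the closing section. No gene of the 6 partner lists passed the test in this comparison. Cell markers differed here too, though none passed. Without overlap of libraries, 7 of 17 tested fibroblast markers were higher than in H3.1WT and 0 were lower. Of the 10 ES cell markers, 1 was higher and 5 were lower, while 35.2% of tested genes did not overlap. The part of the ES cell markers in the values of the 9 genes was not tested.

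H3.1K36M differed from H3.1WT for more genes, but none of the 9 passed. The limma test passed 0 of 9 and 4.84% of tested genes. At an unadjusted p under 0.05 it passed 2 of 9, Morc3 and Atrx, and 20.8% of all. The libraries did not overlap for 5 of 9, against 65.9% of all. The 9 genes ranged from 85.8% to 122% of H3.1WT. Cbx1 read 108.7 and 108.4 FPKM in H3.1K36M and 122.7 and 130.4 in H3.1WT (log2 fold change −0.22, limma adjusted p = 0.44), while both Cbx3 and both Cbx5 values lay within the H3.1WT range.

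Morc3 had the widest difference of the 9 in this comparison. It read 33.99 and 35.62 FPKM in H3.1K36M and 28.12 and 29.01 in H3.1WT, and 26.52 to 29.69 in the 8 libraries of the other 4 groups. Both H3.1K36M libraries thus stood above all 10 others. Against H3.1WT the log2 fold change was 0.28 (SE 0.0845, 95% interval 0.09 to 0.47), and it missed the threshold (limma adjusted p = 0.104). Atrx was 19.9 FPKM against 17.3 (log2 fold change 0.19, limma adjusted p = 0.203).

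Against H3.1K9M, Morc3 in H3.1K36M passed the test. The group means were 34.8 ± 1.16 and 27.8 ± 1.79 FPKM (SD, n = 2 each), a log2 fold change of 0.32 (SE 0.0845, 95% interval 0.13 to 0.51, limma adjusted p = 0.0499). In this comparison of the mutant histones 1 of 9 genes passed, beside 8.24% of tested genes. At an unadjusted p under 0.05 the count was 1 of 9, beside 23.2%, and the libraries did not overlap for 5 of 9, beside 52.0%. The call lies at the threshold. It was lost without H3.1K9M replicate 1 (log2 fold change 0.25, limma adjusted p = 0.114), H3.1K36M replicate 1 (0.35, limma adjusted p = 0.193) or H3.1K36M replicate 2 (0.28, limma adjusted p = 0.301), and held without H3.1K9M replicate 2 (0.38, limma adjusted p = 0.0361).

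Among the 65 tested genes of the partner lists, 4 passed in H3.1K36M against H3.1WT. That is 6.15%, beside 4.84% of all tested genes. Suv39h1 was 7.25 ± 0.467 against 11.3 ± 1.38 FPKM (SD, n = 2 each, limma adjusted p = 0.0163), lower in a line with no hairpin. Pml was 31 against 39.1 (limma adjusted p = 0.0335). Morc1 was 36.4 against 24.3 (limma adjusted p = 0.04), and Zfp57 was 154 against 121 (limma adjusted p = 0.0471). Pml and Morc1 each passed in H3.1K36M in the direction opposite to shSuv39h2, and Zfp57 in the same direction. The fibroblast markers were higher in H3.1K36M, with 15 of 17 tested markers at levels above both H3.1WT libraries and none below. The 3 mesoderm markers T, Mixl1 and Eomes all fell, with a summed level of 3.28 to 3.74 FPKM in H3.1K36M, 14.5 to 20 in H3.1WT and 13.2 to 16.9 in H3.1K9M, and they were also called lower against H3.1K9M, where Morc3 passed. Against H3.1WT, only Nanog of the 10 ES cell markers passed, rising from 192 to 376 FPKM (limma adjusted p = 0.0129). Without overlap of libraries, 6 of the 10 were higher and 2 were lower, while 65.9% of tested genes did not overlap. Pou5f1 was among the lower, at 634 against 781 FPKM (limma adjusted p = 0.0848). The endoderm marker Gata4 fell from 1.54 to 0.748 (limma adjusted p = 0.0331). Against H3.1K9M, 4 of the 10 ES cell markers were called higher and 0 lower, beside 8.24% of tested genes called. These were Nanog (376 against 123 FPKM), Esrrb (154 against 94.2), Zfp42 (438 against 287) and Klf4 (75.8 against 57.9). The part of these markers in the values of Morc3 and the partner genes was not tested, apart from the fibroblast covariate.

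**Figure D4:**
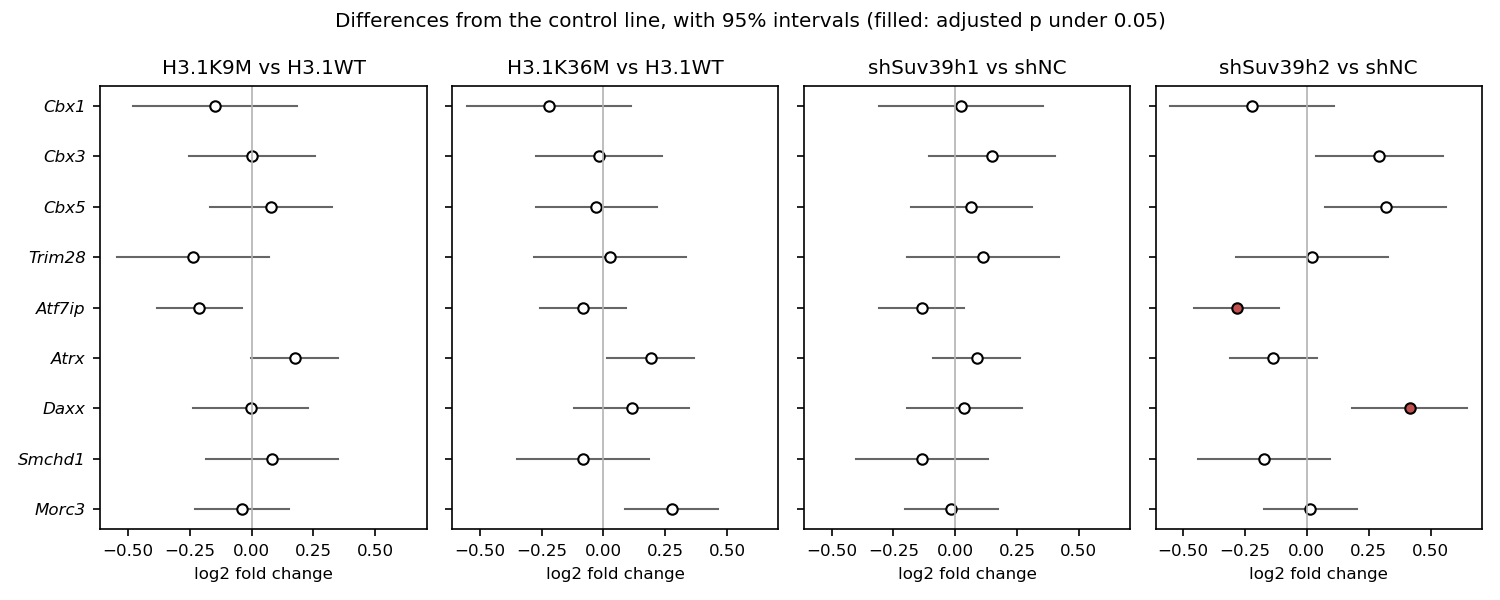
log2 fold change on the log2(FPKM + 1) scale (horizontal axes) of the 9 genes against the control of their arm, with 95% intervals from the limma fit; filled points passed the adjusted threshold of 0.05. The filled points are Daxx (0.42) and Atf7ip (−0.28), both in shSuv39h2 against shNC.

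The control lines were compared as background. Between H3.1WT and shNC the limma test passed 0 of 9 genes and 0.336% of all, and at an unadjusted p under 0.05 1 of 9, Atf7ip, and 11.4% of all. The libraries did not overlap for 4 of 9, all higher in H3.1WT, against 39.4% of all. Atf7ip was 118% of its shNC level in H3.1WT (log2 fold change 0.23, limma adjusted p = 0.309). All 3 mesoderm markers were called higher in H3.1WT, with a summed level of 14.5 to 20 FPKM against 2.21 to 3.51 in shNC. Arm and construct cannot be told apart in this comparison. Over the 7 comparisons, 63 tests of the 9 genes gave 3 calls, of 3 different genes.

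Levels over the 12 libraries were also compared between genes by Pearson's r of log2(FPKM + 1), as a description; the points share libraries and depth, and groups differ in level. Among pairs of the 9, Cbx3 and Cbx5 were the most alike (r = 0.716), followed by Cbx3 and Daxx (0.69), Trim28 and Morc3 (0.684), and Cbx1 and Atf7ip (0.651). Daxx and Smchd1 were the most opposed (−0.591). Among the tested genes most like Daxx were Pprc1 (0.957) and Mta2 (0.945). Those nearest to Cbx3 were Ptma (0.951), Anp32e (0.948) and Set (0.921), which encode acidic histone-binding proteins. Those nearest to Cbx1 were Tnpo1 (0.932), Hsp90ab1 (0.925) and Ddx1 (0.917), and among those most like Cbx5 were Mutyh (0.922) and Gna14 (0.92). The HP1 genes shared none of these neighbours. Those nearest to Trim28 were Oaz2 (0.947), Ppa1 (0.944) and Naa35 (0.942), and to Morc3 Elavl2 (0.965), Gtf2e1 (0.962) and Dr1 (0.956). Nearest to Atf7ip were Nefm (0.929), Alg14 (0.916) and Hdx (0.915), to Atrx Arih1 (0.948), Lacc1 (0.931) and Usp34 (0.915), and among those most like Smchd1 were Acsl3 (0.891) and Serinc5 (0.89).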

How the data were processed

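mRNA capture libraries from 12 samples were described by the deposited FPKM values per gene, made by the authors from their reads. Tools named in the submitters' processing notes are TopHat2 (2.0.13) and Cuffdiff (2.2.1), with mm10 as the build. The sources used here do not give the role and settings of each tool, the annotation, the scaling between libraries or the kit used for each library (the labels name NEBNext Ultra and TruSeq v2). A scaling step in Cuffdiff would shift all genes of a library together.

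A gene was kept at 1 FPKM or more in 2 or more of the 12 libraries, which left 13109. limma 3.58.1 in R 4.3.3 was fitted to log2(FPKM + 1), with the values used as deposited, a mean per group, no replicate block and all 12 libraries together (6 residual degrees of freedom, prior 3.66 from the trend), so that the groups share an estimate of spread. Fold changes on this scale understate changes of low genes. Two-sided p-values were adjusted across all genes kept (Benjamini-Hochberg), and an adjusted p under 0.05 is a call. Percentages of control are ratios of mean FPKM. Steps were checked on simulated data.

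The members and lists were chosen with earlier results of these data known. Named were the 9 members, the hairpin targets, up to 3 called genes per partner list and comparison, and the 3 tested genes most correlated with each member, leaving out predicted and small RNA symbols. Some of these correlated genes are not reported here. Of 67 partner genes listed, 66 were matched by symbol. Depth was estimated from 1182 low genes with a single GENCODE M21 transcript, after 190 bases were taken off each length; 70.7% of 5185 values were then whole steps within 0.05 of a step, where even spacing gives 10%. Promoter sequences are RefSeq's on GRCm38.p6, searched on both strands with Python 3.11.15.

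Alternatives changed the pseudocount to 0.1, dropped the filter or raised it to 5 FPKM, rescaled by quantiles or by median of ratios, weighted the libraries by quality, added the replicate number as a block, fitted fewer groups or left out each library. The mean of the fibroblast markers as a covariate was chosen after seeing the data.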

Additional observations from a re-analysis of the deposited data

Results flagged for a closer look

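Morc3 differed between the mutant histones: its response to H3.1K36M exceeded that to H3.1K9M by 0.316 on the log2 scale, and the direct limma test of the mutant lines passed at the threshold (adjusted p = 0.0499, both H3.1K36M libraries above both H3.1K9M libraries). With 2 libraries in each group, no group was large enough to look for a single library apart from the others.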

How the results depend on the processing

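Counts of called genes over all tested genes were 41 for H3.1K9M against H3.1WT, 634 for H3.1K36M against H3.1WT, 19 for shSuv39h1 against shNC, 1316 for shSuv39h2 against shNC, 1080 for H3.1K36M against H3.1K9M, 860 for shSuv39h2 against shSuv39h1 and 44 for H3.1WT against shNC. Outside 1.5 times of these, a pseudocount of 0.1 gave 11 for shSuv39h1 against shNC. No filter gave 12 for H3.1K9M against H3.1WT. With a filter of 5 FPKM they were 27 for H3.1K9M against H3.1WT, 354 for H3.1K36M against H3.1WT, 663 for H3.1K36M against H3.1K9M and 29 for H3.1WT against shNC. With array quality weights they were 1 for H3.1K9M against H3.1WT, 2983 for H3.1K36M against H3.1WT, 860 for shSuv39h2 against shNC, 507 for H3.1K36M against H3.1K9M and 2103 for shSuv39h2 against shSuv39h1. With fits over fewer groups they were 2 for H3.1K9M against H3.1WT, 186 for H3.1K36M against H3.1WT, 3 for shSuv39h1 against shNC, 866 for shSuv39h2 against shNC, 510 for H3.1K36M against H3.1K9M, 348 for shSuv39h2 against shSuv39h1 and 1 for H3.1WT against shNC. With the fibroblast marker mean as a covariate they were 27 for H3.1K9M against H3.1WT, 35 for shSuv39h1 against shNC, 2319 for shSuv39h2 against shNC, 2034 for H3.1K36M against H3.1K9M and 200 for H3.1WT against shNC. With each compared library left out in turn they ranged from 2 to 695 for H3.1K9M against H3.1WT, 107 to 200 for H3.1K36M against H3.1WT, 0 to 18 for shSuv39h1 against shNC, 360 to 1567 for shSuv39h2 against shNC, 267 to 1424 for H3.1K36M against H3.1K9M, 76 to 221 for shSuv39h2 against shSuv39h1 and 7 to 147 for H3.1WT against shNC. The 695 came without H3.1K9M replicate 2, and without its replicate 1 the count was 20. Quantile and median-of-ratios scaling kept all 7 counts within 1.5 times, and where a count moved the cause was not tested, apart from the smaller number of genes or libraries in some fits.

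Of the 9 genes, 2 passed in shSuv39h2 against shNC and 1 in H3.1K36M against H3.1K9M. No called value changed sign under any alternative run, but many of these runs could not change it. The filters, quality weights, replicate block and fits over fewer groups left the fold changes of these calls as they were. The compared libraries did not overlap for these calls, so leaving 1 out could not reverse a sign. In shSuv39h2 the count was 0 with array quality weights and with fits over fewer groups, and 0 to 1 with a library left out. Daxx then had limma adjusted p-values of 0.0654 and 0.0833, and Atf7ip 0.124 and 0.099. Over all alternatives the adjusted p ran from 0.0159 to 0.211 for Daxx and from 0.018 to 0.193 for Atf7ip. For Morc3 in H3.1K36M against H3.1K9M the count was 0 with a pseudocount of 0.1, a filter of 5 FPKM, quantile scaling, median-of-ratios scaling, array quality weights and fits over fewer groups (limma adjusted p from 0.0511 to 0.123), and 0 to 1 with a library left out. Array quality weights passed 2 of 9 in H3.1K36M against H3.1WT, Morc3 (limma adjusted p = 0.00924) and Atrx (0.0369), and 2 of 9 in shSuv39h2 against shSuv39h1, Daxx (0.0143) and Atrx (0.0449). With the fibroblast marker mean as a covariate, Cbx5 passed in shSuv39h2 (0.0476).

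Samples share replicate numbers, but deviations of same-numbered libraries correlated between −0.384 and 0.517 over all pairs of groups. Within an arm they ran from −0.384 for H3.1WT and H3.1K9M to 0.383 for shNC and shSuv39h2. The sign was not shared by all pairs, so the numbers were not taken as a pairing. With the replicate block the counts were 7 for H3.1K9M against H3.1WT, 3 for shSuv39h1 against shNC and 18 for H3.1WT against shNC, and the 9 genes gave 1 call in shSuv39h2, Daxx, with Atf7ip at a limma adjusted p of 0.0737.

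Values that passed no test changed sign in places, and the cause was not tested. With quantile scaling the log2 fold change was Cbx1 −0.013 in shSuv39h1 against shNC, Morc3 −0.055 in shSuv39h2 against shNC, Atrx −0.037 in H3.1K36M against H3.1K9M, and Morc3 −0.014 in H3.1WT against shNC. With median-of-ratios scaling the log2 fold change was Daxx 0.016 in H3.1K9M against H3.1WT, Trim28 −0.0095 in H3.1K36M against H3.1WT, Cbx1 −0.030 and Daxx −0.014 in shSuv39h1 against shNC, Morc3 −0.033 and Trim28 −0.028 in shSuv39h2 against shNC, Atrx −0.038 in H3.1K36M against H3.1K9M, and Morc3 −0.011 in H3.1WT against shNC. With the fibroblast marker mean as a covariate the log2 fold change was Cbx1 0.020 in H3.1K9M against H3.1WT, Cbx3 0.021, Cbx5 0.12, Smchd1 0.13 and Trim28 −0.053 in H3.1K36M against H3.1WT, Cbx1 −0.081 and Cbx5 −0.0099 in shSuv39h1 against shNC, and Smchd1 0.064 in shSuv39h2 against shSuv39h1. With each library left out in turn, the ranges that crossed 0 were as follows. In H3.1K9M against H3.1WT the range was Cbx1 from −0.40 to 0.099, Cbx3 from −0.10 to 0.10, Cbx5 from −0.084 to 0.24, Daxx from −0.068 to 0.059, Morc3 from −0.10 to 0.024 and Smchd1 from −0.043 to 0.21. In H3.1K36M against H3.1WT the range was Cbx3 from −0.067 to 0.032, Cbx5 from −0.093 to 0.038 and Trim28 from −0.065 to 0.12. In shSuv39h1 against shNC the range was Cbx1 from −0.084 to 0.13, Daxx from −0.090 to 0.17, Morc3 from −0.092 to 0.061, Smchd1 from −0.29 to 0.019 and Trim28 from −0.092 to 0.32. In shSuv39h2 against shNC the range was Morc3 from −0.062 to 0.091 and Trim28 from −0.18 to 0.23. In H3.1K36M against H3.1K9M the range was Atrx from −0.0069 to 0.043, Cbx1 from −0.32 to 0.18, Cbx3 from −0.12 to 0.085 and Cbx5 from −0.27 to 0.056. In shSuv39h2 against shSuv39h1 the range was Morc3 from −0.023 to 0.083, Smchd1 from −0.097 to 0.019 and Trim28 from −0.23 to 0.044. In H3.1WT against shNC the range was Atrx from −0.081 to 0.042, Daxx from −0.052 to 0.20, Morc3 from −0.054 to 0.099 and Smchd1 from −0.22 to 0.091.

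The counting error of about 4.26% to 4.89% holds for a transcript of 2 kb at 10 FPKM. It is larger at lower levels, where some of the called partner genes lay. Its part in the called differences was not tested. The number of libraries, 2 a group, limits the precision.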

Other observations

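In 44 of the 54 pairs of libraries (9 genes in 6 groups), replicate 2 read higher than replicate 1, whereas replicate 2 was higher for 47.9% to 55.9% of all tested genes. The count was 9 of 9 in shSuv39h2, 8 of 9 in H3.1WT and in H3.1K9M, 7 of 9 in shSuv39h1, and 6 of 9 in H3.1K36M and in shNC. The median log2 difference over the 9 genes ran from 0.04 in H3.1K36M to 0.15 in shNC. The replicate numbers have no known meaning, the pattern was noticed after the values were seen, and it carries no test.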
